A study of Homo sapiens with 8 samples.

Results

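The minichromosome maintenance (MCM) genes of the replicative helicase and its relatives were followed through a selective ribosome profiling experiment. All genes of the MCM family that carry a number from 2 to 10 in their symbol were taken, by symbol, from the gene counts of both cell lines. This gave 9 genes, MCM2 to MCM10, out of 60664 gene identifiers in the tables. Selective ribosome profiling sequences the stretches of mRNA that ribosomes shield from nuclease, called RPFs (ribosome-protected fragments), both from total ribosomes (input) and from the ribosomes that a chaperone bound to the nascent chain brings down (pulldown). The cells were U2OS, a human osteosarcoma line. The genotype was CCT4-Halo in one line, where a HaloTag sits in a subunit of the chaperonin TRiC, and PFDN4-Halo in the other, where it sits in a subunit of the co-chaperone prefoldin (PFD). Both tags were inserted by genome editing, and the edited cells were sorted to single clones, so that each line is a clone of its own. Each line gave 2 input and 2 pulldown libraries, which the study's methods describe as biological replicates. All cells, inputs included, received cycloheximide at 100 µg per ml for 1 min, which stalls elongating ribosomes, and the crosslinker DSP at 2 mM for 30 min. The comparisons ask whether ribosomes that make an MCM subunit were recovered with TRiC or PFD more or less often than ribosomes in general, and how much of each subunit the cells were making.

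MCM2 to MCM7 encode the subunits of a ring-shaped helicase that holds a single copy of each. The ring is loaded onto replication origins as an inactive double hexamer by the origin recognition complex (ORC), CDC6 and CDT1, a step called licensing. It becomes active when CDC45 and the GINS complex join it. MCM8 and MCM9 form a helicase of their own that acts in homologous recombination, with HROB as its partner. MCM10 is a replication factor of another fold, which works with the active helicase and is not an ATPase of this family. TRiC is a ring-shaped chaperonin that encloses and folds client proteins such as actin and tubulin, and PFD hands clients to it.

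The MCM subunits share an ATP-binding loop, the Walker A region, and the coding bases of that loop are given because the deposited counts came from reads that align to a single place in the genome, so that how far the paralogs resemble each other bears on every count below. Each stretch is written 5′ to 3′ on the coding strand, and capitals mark the 9 positions at which all 7 printed stretches hold the same base.
MCM2: GGaGAcCCtggcacaGcgAAgtcg
MCM3: GGaGAcCCatccgttGccAAgtct
MCM5: GGgGAcCCtgggacaGccAAgtcc
MCM6: GGtGAcCCaagtacaGctAAgagc
MCM7: GGgGAtCCtggtgtgGccAAgtct
MCM8: GGaGAtCCaggcctaGgaAAaagt
MCM9: GGgGAtCCtggcacaGggAAatct

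On the hg38 build these stretches lie in coding exons at chr3:127616912-127616935 of the plus strand for MCM2, chr22:35413924-35413947 of the plus strand for MCM5, chr2:135862618-135862641 of the minus strand for MCM6, chr7:100097338-100097361 of the minus strand for MCM7, chr20:5973161-5973184 of the plus strand for MCM8 and chr6:118911723-118911746 of the minus strand for MCM9. The MCM3 stretch is interrupted by an intron, between positions 52277176 and 52277535 on the minus strand of chromosome 6. Pairs of the 7 stretches differed at between 4 of 24 bases, in MCM2 and MCM5, and 12 bases, in MCM5 and MCM8. The Walker A pattern searched for in the translated coding sequences had no match in MCM4 or MCM10, which says only that this pattern is not in them. Even in this conserved loop, then, no 2 of the 7 genes had the same bases throughout. Over the whole coding sequences the longest identical run shared by any 2 of the 9 genes was 21 bases, in MCM5 and MCM7, and no run of 28 bases, which is about the length of an RPF, occurred in more than 1 member.

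The genes lie apart from each other on hg38, and only MCM3 and MCM9 share a chromosome. MCM2 (ENSG00000073111) covers positions 127598410 to 127622436 of chromosome 3 with 16 exons and 2712 coding bases. MCM3 (ENSG00000112118) lies on chromosome 6 from 52264014 to 52284881 with 17 exons and 2424 coding bases. MCM4 (ENSG00000104738) lies on chromosome 8 from 47960185 to 47978160 with 17 exons and 2589 coding bases. MCM5 (ENSG00000100297) lies on chromosome 22 from 35400134 to 35425431 with 17 exons and 2202 coding bases. MCM6 (ENSG00000076003) lies on chromosome 2 from 135839626 to 135876443 with 17 exons and 2463 coding bases. MCM7 (ENSG00000166508) lies on chromosome 7 from 100092233 to 100101940 with 15 exons and 2157 coding bases. The hexamer genes are thus close to each other in coding length.

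The remaining members reach further in gene length. MCM8 (ENSG00000125885) lies on chromosome 20 from 5950652 to 5998977 with 19 exons and 2520 coding bases. MCM9 (ENSG00000111877) lies on chromosome 6 from 118813442 to 118935162 with 14 exons and 3429 coding bases. MCM10 (ENSG00000065328) lies on chromosome 10 from 13161558 to 13211110 with 20 exons and 2622 coding bases. MCM8 needs a separate reading, because 96.4% of its coding bases also lie in exons of ENSG00000286235, an annotated readthrough gene on the same strand that had 0 counts in all 8 libraries. The counter that made the tables assigns a read under exons of 2 genes on the same strand to neither, so the MCM8 counts are compared between libraries here and are not read as a level of its coding sequence. Of the MCM2 coding bases, 16.5% lie under exons of an antisense RNA, ENSG00000285600, which had between 0 and 3 counts. No coding base of the other 7 members lies under an exon of another gene, although 7.90% of all MCM7 exon bases overlap opposite-strand exons of AP4M1.

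The libraries held between 9523128 and 32637658 counts. Of the mesenchymal and osteoblast markers, COL1A1 was at 2842 to 5596 CPM, SPARC at 2176 to 3109 and VIM at 1449 to 2100, RUNX2 at 30.2 to 64.4 and CDH11 at 17.2 to 58.7, while SP7, BGLAP and COL1A2 stayed at or below 1.96 CPM in every library. ALPL, the alkaline phosphatase of bone, split the lines, at 2.94 ± 0.64 CPM in the TRiC inputs and 43.0 ± 0.15 CPM in the PFD inputs (SD, n = 2). CPM gives the counts of a gene per 1000000 counts of the library, scaled with TMM factors over the 8 libraries. The 7 epithelial, blood, endothelial and hepatocyte markers summed to between 0.315 and 18.2 CPM. Among them the epithelial marker EPCAM ranged from 0.105 to 18.2 CPM, and no other passed 2.67 CPM, the highest value of PECAM1. PFD pulldown replicate 1 stood apart: 47 genes with at least 5 CPM, here without TMM scaling, in each of the other 3 PFD libraries had 0 counts there. MCM8 was among them, and no other library had such a gene. The spread between replicates was small for TRiC (common dispersion 0.0153) and large for PFD (0.331). The calls of the members in the PFD pulldown, and some of their values, are given with and without that library below.

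RPFs of the 6 hexamer genes were abundant, and those of MCM9 scarce; MCM8 had few counts too, which its shared exons keep from being read as a level. MCM2 to MCM7 together made up 3013 and 3000 CPM of the TRiC inputs and 2746 and 2709 CPM of the PFD inputs. MCM7, the subunit with the most counts in the TRiC inputs, had 21756 and 23194 counts there, which is 30.3 and 32.3 reads per codon. MCM6 had the fewest counts of the 6 in the PFD inputs, 3989 and 2288, or 4.86 and 2.79 reads per codon. In the inputs MCM10 had between 1811 and 3553 counts, MCM9 between 165 and 427 and MCM8 between 104 and 335. Counting error was therefore small for the hexamer genes, whereas the 95% Poisson interval of the 104 counts of MCM8 in PFD input replicate 2 ran from 85 to 126.

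**Figure D1:**
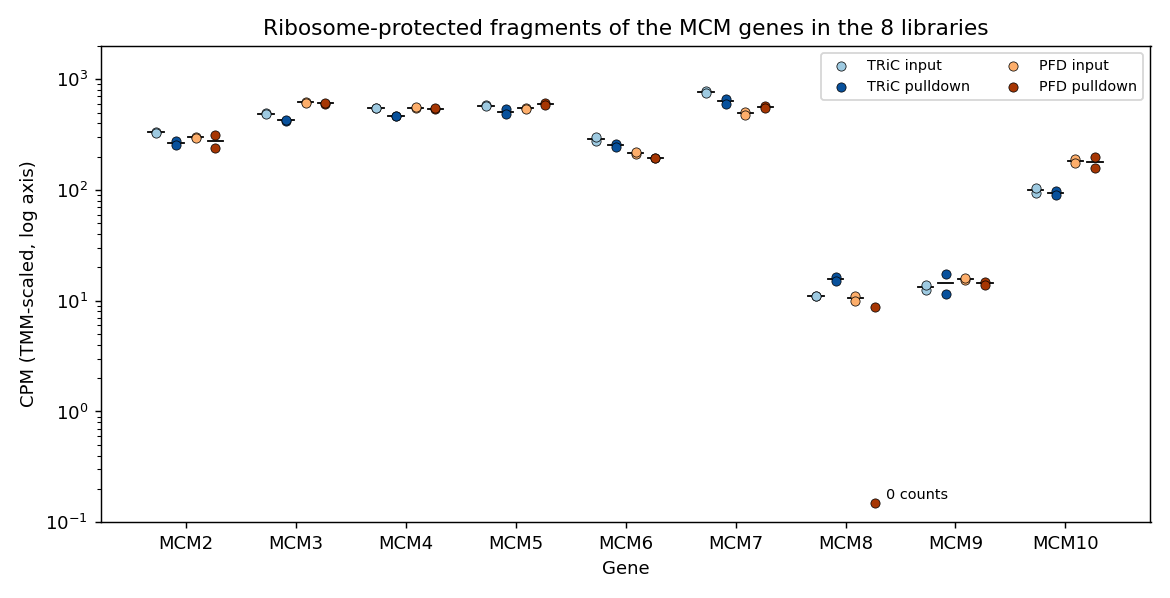
Each point is the level of a gene in a library, in TMM-scaled CPM on a log axis, for the 9 MCM genes along the horizontal axis, coloured by group; short black lines are the mean of 2 replicates, and the library with 0 counts of MCM8 is drawn at the foot without a mean. MCM2 to MCM7 lie at 193 CPM and above in every library, MCM10 between 90.9 and 199.7 CPM and MCM8 and MCM9 below 17.4 CPM.

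A hexamer with a single copy of each subunit raises the question of whether its subunits were synthesized in equal amounts. They were not made at equal RPF density. Density was taken as counts per kilobase of coding sequence and divided by the geometric mean of the 6 genes in the same library, so that equal synthesis would give 1 for each. In the TRiC inputs MCM7 stood highest at 1.81 ± 0.03 (SD, n = 2), followed by MCM5 at 1.34 ± 0.0039, MCM4 at 1.08 ± 0.0096 and MCM3 at 1.03 ± 0.02. MCM2 followed at 0.63 ± 0.01 and MCM6 at 0.59 ± 0.03, with ranges that overlapped, while the other neighbours in this order did not overlap between the 2 replicates. From MCM7 to MCM6 the density fell 3.20-fold in replicate 1 and 2.89-fold in replicate 2, a mean of 3.04 ± 0.22 (SD, n = 2).

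In the PFD inputs the low end was the same and the high end was not. MCM3 stood highest at 1.45 ± 0.0036 (SD, n = 2), followed by MCM5 at 1.41 ± 0.0099, MCM7 at 1.29 ± 0.05 and MCM4 at 1.21 ± 0.01. MCM2 was again low at 0.63 ± 0.0009, and MCM6 lowest at 0.50 ± 0.02. In both lines the MCM2 density carries a limit, as 16.5% of its coding bases lie under antisense exons. Whether reads there were counted depends on the strand column, which was not given. The order from MCM3 to MCM6 had no overlap between neighbours in these 2 libraries, and the density of MCM3 was 2.91 ± 0.11 times that of MCM6. Across all 4 inputs the single step in the order that held without overlap was that between the lowest value of the upper 4 genes, 1.01, and the highest value of MCM2 and MCM6, 0.63. These levels are a description, and the order of the genes within a library was not tested. RPF density follows synthesis only where ribosomes move at the same rate on each message, which was not tested.

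The pulldowns kept the same split. In the TRiC pulldowns MCM7 was at 1.76 ± 0.05 (SD, n = 2), MCM5 at 1.39 ± 0.06, MCM4 at 1.08 ± 0.05, MCM3 at 1.05 ± 0.05, MCM6 at 0.62 ± 0.0037 and MCM2 at 0.59 ± 0.005. In the PFD pulldowns MCM5 was at 1.54 ± 0.07, MCM7 at 1.49 ± 0.09, MCM3 at 1.42 ± 0.03, MCM4 at 1.19 ± 0.01, MCM2 at 0.58 ± 0.09 and MCM6 at 0.45 ± 0.0097. Over all exon bases in place of coding bases the split did not hold, as MCM4 lay below MCM2 in the inputs of both lines. Over coding bases MCM2 and MCM6 lay below the other 4 subunits in all 8 libraries. The members outside the hexamer lay further down. MCM10 was at 19.3% ± 1.5 of the geometric mean of MCM2 to MCM7 in the TRiC inputs and 39.3% ± 1.9 in the PFD inputs (SD, n = 2), and MCM9 at 1.97% ± 0.14 and 2.58% ± 0.10.

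**Figure D2:**
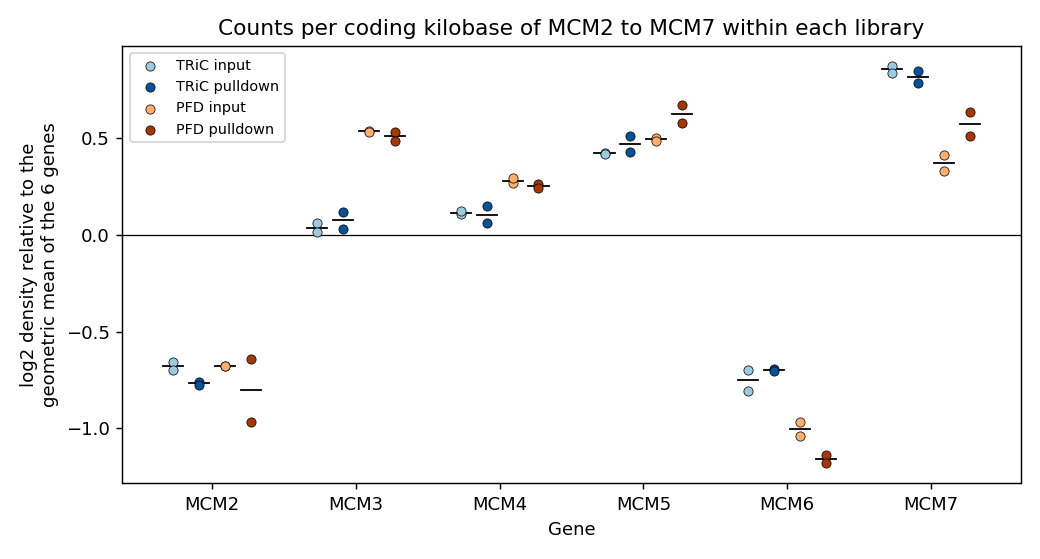
The vertical axis is the log2 RPF density (counts per coding kilobase) of a gene relative to the geometric mean of MCM2 to MCM7 in the same library, with the 6 genes along the horizontal axis; points are libraries coloured by group and short black lines are means of 2. MCM2 and MCM6 lie below 0 in all 8 libraries, and MCM7 lies higher in the TRiC line, with a mean of 0.86 in the inputs, than in the PFD line, with 0.37.

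RPFs of 4 hexamer subunits were slightly depleted among the ribosomes recovered with TRiC, relative to RPFs in general. In the TRiC pulldown 4 of the 9 members were lower than in the input, MCM2, MCM7, MCM4 and MCM3, and 1 was higher, MCM8, when called at an adjusted p under 0.05 by the quasi-likelihood test of edgeR. Of the 17934 genes tested, 19.2% were called in either direction, 10.6% lower and 8.64% higher. The 6 hexamer genes all lay below 0, between −0.32 and −0.18 on the log2 scale, with a median of −0.22 against −0.00 for all genes tested. Other abundant messages lay there too: among the 436 genes within the range of mean CPM that MCM2 to MCM7 cover in these libraries, 270 to 699.8, the median was −0.17, and 41.3% were called lower and 6.19% higher.

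MCM2, which carries a histone-binding region, had the lowest value of the 9. It was at 337 and 329 CPM in the inputs and at 274 and 258 CPM in the pulldowns, so that both pulldowns lay below both inputs. This gave a log2 fold change of −0.32 (SE 0.07; edgeR adjusted p = 0.00429). MCM7, whose inputs were at 776 and 758 CPM and pulldowns at 663 and 603 CPM, fell by 0.28 (SE 0.07; edgeR adjusted p = 0.00789), again without overlap of the groups. MCM4 was at 547 and 555 CPM in the inputs against 462 and 466 CPM in the pulldowns, for −0.25 on the log2 scale (edgeR adjusted p = 0.0131). MCM3 was at 496 and 482 CPM against 424 and 428 CPM, or −0.20 (edgeR adjusted p = 0.0440). For each of these genes the replicates of a group lay closer to each other than to those of the other group.

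MCM5 and MCM6 lay on the same side and did not pass the test. MCM5 was at 580.3 and 579 CPM in the inputs and 538 and 482 CPM in the pulldowns, with a log2 fold change of −0.18 (edgeR adjusted p = 0.0730, 95% interval −0.33 to −0.04). MCM6 was at 277 and 299 CPM against 261 and 246 CPM, with a log2 fold change of −0.18 (edgeR adjusted p = 0.0909, 95% interval −0.34 to −0.03). For both genes the pulldown replicates lay below the input replicates. In all, 6 members lay below and 1 above their inputs without overlap in the TRiC line, against 31.2% and 29.3% of the genes tested.

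The calls rest on small differences, and none of the 9 members passed a test against a change of 1.5-fold or the fit of all 8 libraries, which shares the wider PFD spread. Scaling decided 3 of the 4 lower calls: with library totals or cyclic loess in place of TMM only MCM2 was still lower, at −0.28 (edgeR adjusted p = 0.0298) and −0.20 (adjusted p = 0.0450 from limma-trend), although the values of all 6 hexamer genes stayed below 0 under every setting. MCM3 was not called either with no filter on low counts or with at least 10 counts in every library. With a library left out, its group keeps 1 library, which is taken to vary like those of the other groups in the fit. Without TRiC input replicate 1 no member was called, without TRiC input replicate 2 MCM2 and MCM7 were the members called, and without TRiC pulldown replicate 1 all 6 hexamer genes were lower.

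The MCM8 count moved the other way. As 96.4% of its coding bases share exons with the readthrough gene, this count says little about ribosomes on its coding sequence. MCM8, the recombination helicase subunit, was at 11.1 and 10.9 CPM in the TRiC inputs and 16.4 and 15.0 CPM in the pulldowns, above both inputs in both replicates. Its value on the log2 scale was 0.51 (SE 0.16; edgeR adjusted p = 0.0308), a call that 9.68% of the 3999 genes within 2-fold of its mean CPM shared. It was not called without TRiC input replicate 1 (0.53; edgeR adjusted p = 0.145), without TRiC input replicate 2 (0.49; adjusted p = 0.184) or without TRiC pulldown replicate 1 (0.43; adjusted p = 0.0754). MCM9, its partner subunit, was at 12.6 and 14.0 CPM in the inputs and at 17.3 and 11.6 CPM in the pulldowns, on both sides of the inputs. Its log2 fold change of 0.13 did not pass (edgeR adjusted p = 0.676, 95% interval −0.26 to 0.51). MCM10 was at 94.1 and 104.9 CPM against 98.4 and 90.9 CPM, with overlapping groups and a log2 fold change of −0.07 (edgeR adjusted p = 0.630, 95% interval −0.26 to 0.12).

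**Figure D3:**
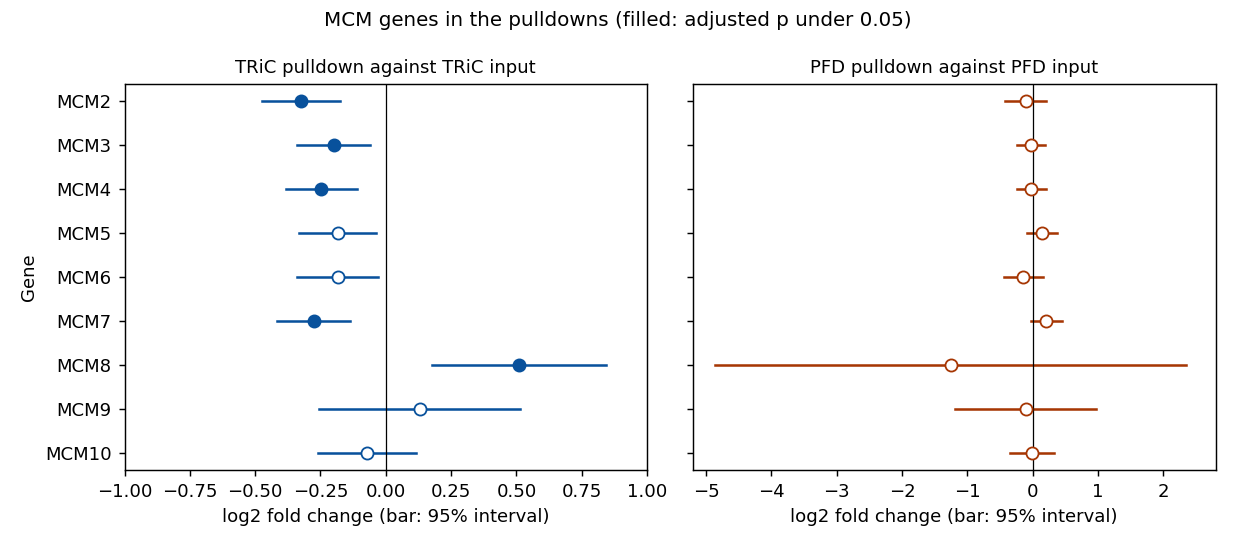
Points are log2 fold changes of pulldown over input for the 9 MCM genes, in the TRiC line on the left and the PFD line on the right, with bars for the 95% interval of edgeR's quasi-likelihood fit and filled points for an adjusted p under 0.05; the horizontal scales of the panels differ. In the TRiC panel MCM2, MCM3, MCM4 and MCM7 are filled below 0 and MCM8 above it, and in the PFD panel no point is filled and MCM8 has an interval from −4.86 to 2.35.

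No member was called in the PFD pulldown, in which 0.241% of the 14111 genes tested were called by edgeR, 0.0496% higher and 0.191% lower, and none had an unadjusted p under 0.05. DESeq2 called none of the 9 either. The hexamer genes lay between −0.15 and 0.21, with a median of −0.02. MCM7 had the highest value: it was at 508 and 476 CPM in the inputs and at 576 and 549.8 CPM in the pulldowns, above both inputs, with a log2 fold change of 0.21 (edgeR adjusted p = 0.769, 95% interval −0.03 to 0.45). MCM5 also lay above its inputs, at 605 and 588 CPM against 552 and 542 CPM, with a log2 fold change of 0.14 (95% interval −0.09 to 0.37). These were the 2 members above their inputs without overlap, where 17.9% of all genes tested were.

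The other hexamer genes lay near 0 in the PFD pulldown. MCM3 was at 623 and 616 CPM in the inputs and at 603 and 607 CPM in the pulldowns, for −0.02 on the log2 scale (95% interval −0.24 to 0.20). MCM4 was at 552 and 557 CPM against 536 and 548 CPM, also −0.02. MCM6 was at 212 and 221 CPM against 193 and 194 CPM, −0.15 (95% interval −0.44 to 0.15). For these 3 genes the pulldowns lay below the inputs without overlap, as they did for MCM8, MCM9 and 20.3% of all genes tested. The replicates of MCM2 and MCM10 overlapped between the groups: MCM2 was at 299.7 and 298 CPM against 239 and 311 CPM, with a log2 fold change of −0.11 (95% interval −0.42 to 0.20), and MCM10 at 189 and 175 CPM against 159.7 and 199.7 CPM, with −0.00 (95% interval −0.34 to 0.33).

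MCM8 and MCM9 were measured with less precision. MCM8 was at 10.9 and 10.0 CPM in the PFD inputs and at 8.80 CPM in pulldown replicate 2, and had 0 counts in pulldown replicate 1, where 3 counts would be 0.315 CPM. With that library the fitted log2 fold change was −1.25 (edgeR adjusted p = 0.963), and without it −0.28 (adjusted p = 0.872). MCM9 was at 15.2 and 15.9 CPM in the inputs and at 14.8 and 13.9 CPM in the pulldowns, with a log2 fold change of −0.11 (95% interval −1.18 to 0.97). Without PFD pulldown replicate 1 none of the 9 members was called, MCM2 was at 0.03, MCM7 at 0.13 and MCM5 at 0.08. Without PFD pulldown replicate 2 MCM7 was called higher, at 0.28 (edgeR adjusted p = 0.0438), and MCM8 lower, in a fit whose only pulldown was the library with 0 counts of MCM8 and whose spread came from the inputs.

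The difference between the enrichments with TRiC and with PFD was tested itself, over all 8 libraries, and no member was called, while 0.0371% of the 18855 genes tested were, 0.0212% higher and 0.0159% lower. MCM7, lower with TRiC and not called with PFD, had a difference of −0.47 on the log2 scale (TRiC minus PFD, SE 0.11; edgeR unadjusted p = 0.00315, adjusted p = 0.175). MCM5 had −0.31 (edgeR adjusted p = 0.276, 95% interval −0.57 to −0.05), and the other 4 hexamer genes lay between −0.21 and −0.03. MCM7 was called lower with DESeq2 (−0.48; adjusted p = 0.00213), with no filter on low counts (−0.50; edgeR adjusted p = 0.0420), without PFD pulldown replicate 1 (−0.43; edgeR adjusted p = 0.0480) and without PFD pulldown replicate 2 (−0.49; edgeR adjusted p = 0.0135), the last with the library that stood apart as the only PFD pulldown. MCM8, MCM9 and MCM10 were at 1.70, 0.24 and −0.06, with intervals that all held 0, and MCM8 was called higher without PFD pulldown replicate 2.

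Among 52 other genes of DNA replication, 13 were lower and 4 higher in the TRiC pulldown, 32.7% against 19.2% of all genes tested. By direction, 10.6% of all genes tested were called lower and 8.64% higher. Of the 52 genes, 34 lay below 0, with a median of −0.04 over the list. The lowest called values belonged to genes of the replication fork and of GINS. POLD4, the smallest subunit of DNA polymerase delta, was at −0.68 (edgeR adjusted p = 0.0135). RFC2 of the clamp loader was at −0.43, RPA3 of the single-strand binding complex at −0.40, POLE3 of polymerase epsilon at −0.40 and GINS4 at −0.40, with adjusted p-values from edgeR between 0.00259 and 0.0366. In all, 9 of 28 fork genes were lower, PCNA, the sliding clamp (−0.27), and the flap nuclease gene FEN1 (−0.29) among them, and 1 was higher. Of the 10 licensing genes 2 were lower, the loading factor CDT1 (−0.32) and its inhibitor GMNN (−0.32), and none was higher. MCMBP, whose product binds free MCM subunits, was at −0.16 and did not pass (edgeR adjusted p = 0.183).

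The 4 higher genes encode longer proteins: MTBP (0.37) and TICRR (0.32), which act together in origin firing, the helicase gene RECQL4 (0.28) and POLE, the catalytic subunit of polymerase epsilon (0.34). Of the 13 activation genes 3 were higher and 2 lower, GINS4 and GINS2 (−0.29). CDC45, the helicase's activator, was at −0.01, GINS1 at 0.02 and GINS3 at −0.01, and HROB, the partner of MCM8 and MCM9, at −0.11, none of them called. None of the 52 was called by edgeR in the PFD pulldown, where their median was −0.13 and 1, RPA3, had an unadjusted p under 0.05, or in the difference between the enrichments. With library totals or cyclic loess 4 of the 52 were lower in the TRiC pulldown, and 3 were without TRiC input replicate 1, 4 without TRiC input replicate 2 and 6 without TRiC pulldown replicate 2. The 4 higher genes became 2 without TRiC input replicate 1 and 0 without TRiC input replicate 2.

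Coding length moved with these values. The 4 higher genes had between 2712 and 6858 coding bases with a median of 4677, the 13 lower genes between 321 and 3321 with a median of 783, and the 35 genes not called a median of 1698. Over the 52 genes Spearman's rho between coding length and the log2 fold change of the TRiC pulldown was 0.57, and over the 14615 protein-coding genes tested it was 0.35. These are correlations across genes of the same 4 libraries, given as a description without a p. For mean CPM the corresponding rho was 0.01 over the 52 genes and −0.23 over the protein-coding genes. With 2157 to 2712 coding bases, MCM2 to MCM7 lie within the range of the 13 lower genes, 321 to 3321, and above their median. MCM2, the longest of them, has as many coding bases as MTBP, the shortest of the 4 higher genes. The part of length or abundance in the MCM values was not tested.

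Between the total ribosomes of both lines 4 of the 9 members were called at an adjusted p under 0.05 by edgeR, a share near that of all genes. Compared between PFD and TRiC inputs, 2 members were higher in the PFD line, MCM10 and MCM3, and 2 lower, MCM7 and MCM6, by edgeR's quasi-likelihood test, while 40.3% of the 16341 genes tested were called, 17.7% higher and 22.6% lower. MCM10 was at 94.1 and 104.9 CPM in the TRiC inputs and at 189 and 175 CPM in the PFD inputs, a log2 difference of 0.87 (SE 0.09; edgeR adjusted p = 0.00164). MCM3 was at 496 and 482 CPM against 623 and 616 CPM, 0.34 higher (SE 0.05; edgeR adjusted p = 0.00575). MCM7 was at 776 and 758 CPM against 508 and 476 CPM, a difference of −0.64 (SE 0.06; edgeR adjusted p = 0.000988), and MCM6 at 277 and 299 CPM against 212 and 221 CPM, a difference of −0.41 (SE 0.07; edgeR adjusted p = 0.00833). For all 4 genes both replicates of one line lay outside the range of the other. The same held for MCM2, MCM5, MCM8 and MCM9, which were not called, so it does not set the called genes apart. For MCM8 the gap was only that between 10.942 CPM in TRiC input replicate 2 and 10.938 CPM in PFD input replicate 1. The share of all genes without such overlap was not taken, so nothing about the members is read from it.

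The other 5 members did not pass this test. MCM2 was at −0.16 (edgeR adjusted p = 0.0778), MCM5 at −0.08 and MCM4 at 0.01, with 95% intervals of −0.30 to −0.02, −0.21 to 0.04 and −0.12 to 0.14. MCM8 was at −0.07 and MCM9 at 0.23. The median of all genes was −0.11 here and 0.03 under cyclic loess, where MCM2 (−0.29) and MCM5 (−0.23) were called lower as well and MCM4 was at −0.14. The sum over the hexamer genes differed less between the lines than MCM7 or MCM10 did, at 3013 and 3000 CPM in the TRiC inputs against 2746 and 2709 CPM in the PFD inputs. In bulk libraries fewer cells that express a gene and fewer fragments per cell cannot be told apart, and the tagged line, its clone and the preparation of its libraries cannot be told apart either. The part of the difference in ALPL between the lines in these values was not tested.

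Of the 10 licensing genes 5 were higher in the PFD line and none lower, where 17.7% of all genes tested were called higher and 22.6% lower. Their median was 0.48 against −0.11 for all genes tested, and the 5 that did not pass, ORC4, ORC5, CDT1, its inhibitor GMNN and MCMBP, lay between 0.09 and 0.50. CDC6 was at 139 and 153 CPM in the TRiC inputs and 239.6 and 229 CPM in the PFD inputs, a log2 difference of 0.68, and the called ORC genes were ORC6 (0.84), ORC3 (0.72), ORC1 (0.59) and ORC2 (0.47). The lists of later steps were mixed. Of the 13 activation genes 1 was higher and 4 lower, GINS4 lowest at −1.57, and of the 28 fork genes 5 were higher and 7 lower, POLE3 highest at 1.53. Over the 52 genes 11 were higher and 11 lower, or 42.3% called, close to the 40.3% of all genes.

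**Figure D4:**
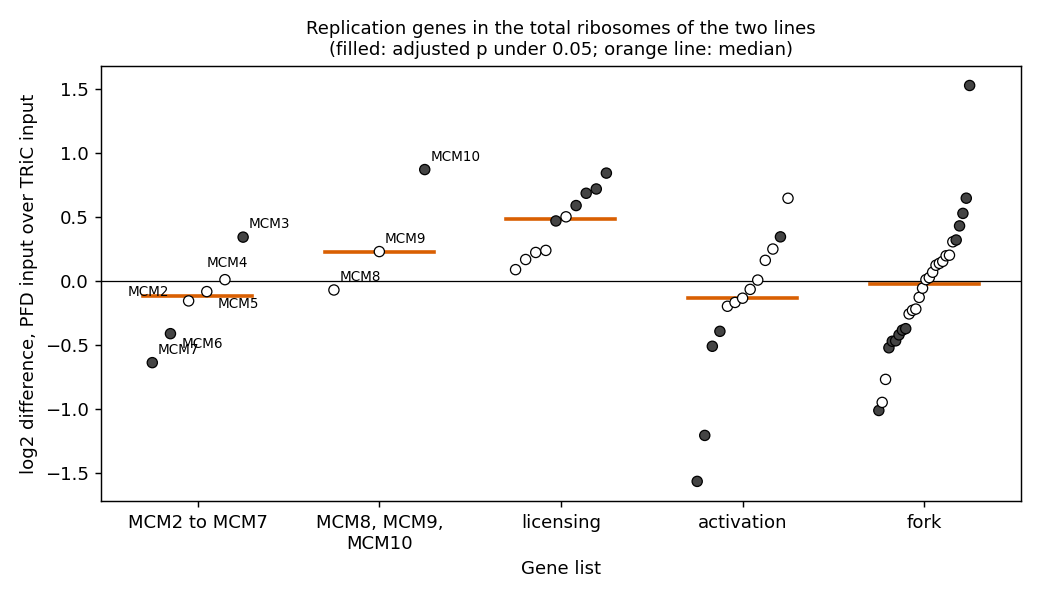
The vertical axis is the log2 difference between PFD and TRiC inputs, with a point for each gene of the MCM family and of the other replication lists along the horizontal axis, sorted within a list; filled points have an adjusted p under 0.05 and orange lines are medians. MCM10 (0.87) and MCM3 (0.34) are filled above 0 and MCM7 (−0.64) and MCM6 (−0.41) below it, and all 10 licensing genes lie above 0.

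The hexamer genes did not all vary together across the 8 libraries. Pearson's r between the log2 CPM of a gene and the mean of the other 5 was 0.70 for MCM2, 0.51 for MCM4, 0.48 for MCM5, 0.18 for MCM7, 0.12 for MCM6 and −0.33 for MCM3. Among 7398 protein-coding genes with a mean of at least 20 CPM, those whose log2 CPM followed the mean of MCM2 to MCM7 most closely were ENO1, the glycolytic enolase (r = 0.97), CYC1, the cytochrome c1 of respiratory complex III (0.96), FSCN1, the actin-bundling fascin (0.96), S100A6 (0.95) and the histone variant gene H2AX (0.95). The 99th percentile of all genes ranked was 0.82. The 8 libraries fall into groups that share a line, so these values describe likeness of level only.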

How the data were processed

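RPF counts per gene were analysed in 8 libraries of the CCT4-Halo and PFDN4-Halo lines (4 groups of 2). Per the labels and methods, the authors deposited raw counts of reads whose duplicates were handled with UMI-tools, from which non-coding RNA was taken out with Bowtie2 2.4.2 and which STAR 2.7.10a placed on hg38 at a single position with at most 2 mismatches; the annotation release and strand column were not given in the sources used here. Of 60664 identifiers, 60463 matched GENCODE 44, which gave names, positions and coding lengths of canonical transcripts.

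Counts were tested in R 4.3.3 with edgeR 4.0.16 (TMM, filterByExpr, glmQLFit, glmQLFTest, no replicate block, Benjamini-Hochberg over all genes, adjusted p under 0.05), within each line, over all 8 libraries for the difference between enrichments, and over the 4 inputs. Alternatives: DESeq2 1.42.0, a replicate block, library totals, cyclic loess with limma 3.58.1, no filter, at least 10 counts in every library, one fit of all 8 libraries, glmTreat at 1.5-fold and leaving out each library. Density was also taken over exon bases, over the longest coding sequence and, as chosen after seeing the data, over coding bases outside exons of other genes. The fits were tested on simulated counts. Poisson intervals cover counting error only.

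The members, lists and tests were chosen with earlier results of these data known. Named genes were the 9 members, the partners MCMBP, HROB, CDC45, GINS1, GINS2, GINS3, GINS4, CDT1 and GMNN, up to 6 other replication genes called per pulldown by size of change, and the 5 most alike in level. PCNA, FEN1, TICRR, RECQL4, POLE, CDC6 and the ORC genes are outside this rule and were picked once their values had been seen, as was POLE3 in the comparison of inputs. Library totals are given in the report.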

Additional observations from a re-analysis of the deposited data

How the results depend on the processing

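The comparisons rest on 2 replicates a group, and an exact permutation test of 2 libraries against 2 cannot give a p below 0.333. The p-values from edgeR set a difference against a spread estimated over the libraries of a fit and moderated across genes, which was wide for PFD. Values of single genes, 618 over all settings, kept sign and side of the threshold in 496, lost a call in 71, gained one in 16 and changed sign in 35; the causes were not tested. RPF counts per gene cannot place a chaperone along the coding sequence. For MCM8 and MCM9, with at most 584 counts, small changes were not detectable at this depth.

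In the TRiC pulldown 3444 genes were called, against 31 in one fit of all 8 libraries, 228 with glmTreat against 1.5-fold, and between 1698 (without TRiC input replicate 1) and 4698 (without TRiC pulldown replicate 1) with a library left out. The 4 lower members became 1 with library totals, 1 with cyclic loess, 0 in one fit of all 8 libraries, 0 with glmTreat and between 0 and 6 with a library left out. The 1 higher member became 0 in one fit of all 8 libraries, 0 with glmTreat and 0 or 1 with a library left out. The 13 lower replication genes became 4 with library totals, 4 with cyclic loess and 3 to 13 with a library left out, and the 4 higher ones 0 to 5.

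In the PFD pulldown 34 genes were called, against 551 with DESeq2, 57 with cyclic loess, 152 with no filter, 83 in one fit of all 8 libraries and 71 to 2434 with a library left out, the most without PFD pulldown replicate 2. Members called rose from 0 to 1 higher (MCM7) and 1 lower (MCM8) without PFD pulldown replicate 2, with a range of 0 to 1, and lower replication genes ranged from 0 to 8. MCM8 could not be fitted with at least 10 counts in every library.

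For the difference between enrichments 7 genes were called, against 1017 with DESeq2, 4 with cyclic loess, 511 with no filter, 14 with at least 10 counts and 0 to 3931 with a library left out. Members called were 1 lower with DESeq2, 1 lower with no filter, and 0 to 1 in either direction with a library left out, where other replication genes ranged from 0 to 8 higher and 0 to 2 lower.

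Between the inputs 6583 genes were called, against 3858 in one fit of all 8 libraries and 3626 to 11084 with a library left out. The 2 lower members became 4 with cyclic loess. The 5 higher licensing genes became 3 in one fit of all 8 libraries, and the 11 higher and 11 lower replication genes ranged from 5 (without TRiC input replicate 1) to 18 (without PFD input replicate 2) and from 6 (without TRiC input replicate 2) to 18 (without PFD input replicate 1).

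The replicate numbers share a number only: the differences between replicates of input and pulldown correlated at 0.200 over 11778 genes in the TRiC line and at −0.02 over 10141 genes in the PFD line. With a replicate block 4689 genes were called in the TRiC pulldown, 134 in the PFD pulldown and 0 in the difference between enrichments, and 6 members were lower, MCM5 (adjusted p = 0.00671 from edgeR) and MCM6 (adjusted p = 0.0187) now among them, and 1 higher in the TRiC pulldown. The inputs come from different lines, so no block was fitted there.

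Signs turned for values near 0. In the TRiC pulldown MCM10 was at 0.011 with cyclic loess, and MCM9 between −0.20 (without TRiC pulldown replicate 1) and 0.39. CDC45 was at 0.0018 with DESeq2, 0.037 with library totals, 0.087 with cyclic loess, 0.010 with at least 10 counts and −0.037 to 0.0081 with a library left out, GINS1 at −0.076 to 0.11, and GINS3 at 0.032 with library totals, 0.0060 with at least 10 counts and −0.055 to 0.026 with a library left out. In the PFD pulldown MCM10 was at 0.0048 with DESeq2 and −0.14 to 0.11 with a library left out, MCM2 at −0.27 to 0.028, MCM3 at −0.061 to 0.012 and MCM4 at −0.051 to 0.00057. For the difference between enrichments MCM6 was at 0.043 with library totals, 0.069 with cyclic loess and −0.080 to 0.032 with a library left out, MCM10 at 0.012 with library totals, 0.014 with cyclic loess and −0.20 to 0.13, MCM2 at −0.38 to 0.014 and MCM9 at −0.084 to 0.52. Between the inputs MCM4 was at −0.14 with cyclic loess, −0.033 with no filter, −0.022 with at least 10 counts and −0.027 to 0.0064 with a library left out, and MCM8 at 0.053 with cyclic loess.

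Over all exon bases the fold from the highest to the lowest subunit was 2.77 in TRiC inputs and 3.25 in PFD inputs, MCM8 lay at 1.64% and 1.73% of the hexamer mean, MCM9 at 1.21% and 1.59% and MCM10 at 20.8% and 42.3%. The order of the subunits changed with this length. MCM4, with 9852 exon bases, lay below MCM2 in the inputs of both lines and below MCM6 in the TRiC inputs. Over coding bases MCM8 was at 2.23% and 2.36%, over the longest coding sequence at 2.16% in the TRiC inputs, and over coding bases outside exons of other genes, a choice made after seeing the data, at 60.6% and 64.2%. The last values divide all MCM8 counts by the few coding bases left when the shared 96.4% are taken out. None of these MCM8 values is read as a level of its coding sequence.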
